A study of Caenorhabditis elegans with 2 samples.

Results

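The genes described here build the entry to the secretory pathway: subunits of the machinery that moves new proteins into the endoplasmic reticulum (ER), trims and glycosylates them there, and coats the vesicles that carry them onward. They were taken from a list of 34 symbols grouped by role, which was chosen with earlier results of these data known. In the Ensembl annotation of WBcel235, 31 of the 34 were found among 19973 protein-coding genes, and sec-61, srpa-54 and arf-1.2 were not analysed here under those symbols. Binding of NFYB-1, the B subunit of the worm NF-Y complex, was measured by chromatin immunoprecipitation and sequencing in whole Caenorhabditis elegans young adults at 65 hours. The worms were of strain RW12190, in which TY1, EGFP and 3xFLAG tags were inserted at nfyb-1 by CRISPR, and had been starved as L1 larvae after bleaching to synchronise them. Both biological replicates belonged to 1 group and carried the tagged gene, so no condition could be compared, and whole worms pool all tissues. Since the tag sits on the protein itself, the antibody against GFP reports the fusion protein.

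In eukaryotes the signal recognition particle (SRP) brings ribosomes making secreted or membrane proteins to the Sec61 channel, through which the chain enters the ER. Signal peptidase then cuts off the signal sequence, the translocon-associated protein (TRAP) complex assists at the channel, and oligosaccharyltransferase (OST) attaches N-linked sugars. COPII coats form the vesicles that leave the ER, and COPI coats return material from the Golgi. NF-Y binds the CCAAT box as a complex of A, B and C subunits and is known at promoters of ER chaperone genes in mammals.

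NFYB-1 was bound at the starts of 9 of the 31 genes: sec-61.B, sec-61.G, spcs-2, trap-1, trap-2, trap-3, dad-1, sar-1 and sec-24.1. Binding here means a summit of the authors' conservative list, which draws on both replicates, within the stretch that begins 500 bp before an annotated start and ends 200 bp after it. That is 29.0% of these genes, beside 7.41% of all protein-coding genes (1480 of 19973). Earlier results of these data were known when the genes were listed, so both shares are a description only. Of the translocation, processing and glycosylation genes, counted together with the 2 ER J-domain genes, 7 of 18 (38.9%) were bound. Of the vesicle coat genes 2 of 13 (15.4%) were bound. The groups are small and no test was run between them.

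By complex, TRAP had 3 of 4 genes bound, the Sec61 channel 2 of 3, signal peptidase 1 of 3, COPII 2 of 6 and OST 1 of 5. None was bound of the 7 COPI genes, the 2 ER J-domain genes and the single SRP gene. The 95% intervals were wide: 19.4 to 99.4% for TRAP, 9.43 to 99.2% for the Sec61 channel and 4.33 to 77.7% for COPII. For COPI the interval reached up to 41.0%. The 7.41% of all genes lay inside the intervals of COPI, the J-domain genes and SRP, so these are not shown to differ from it. No test was run between complexes, and these shares too are a description only. The 9 bound genes were reached by 8 regions, since sec-61.B and trap-3 share 1.

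**Figure D1:**
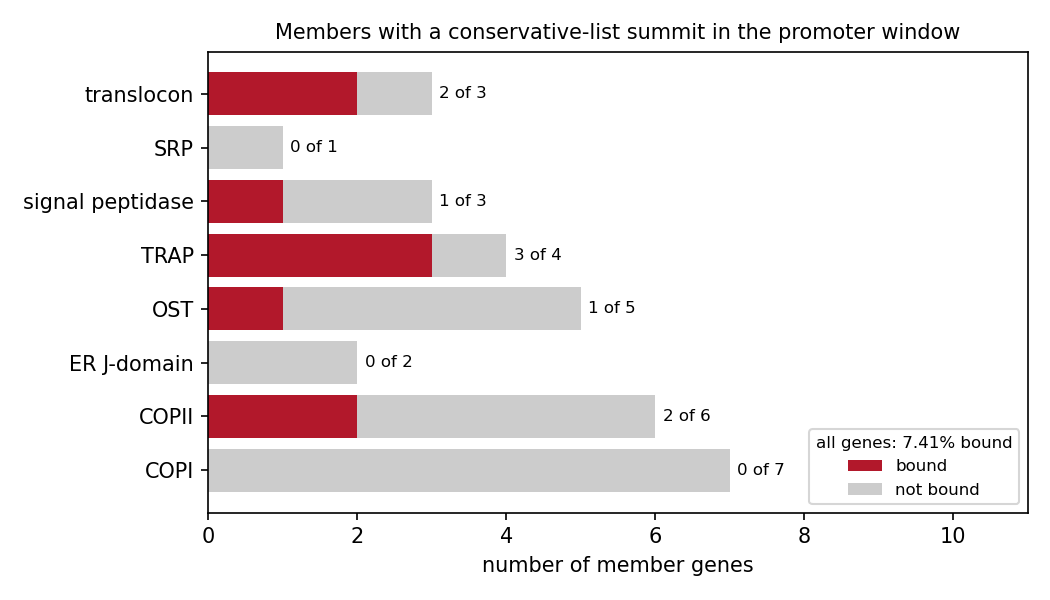
Number of genes (horizontal axis) in each complex (vertical axis) that were bound (red) or not bound (grey) in the conservative list. TRAP stands at 3 of 4 and COPI at 0 of 7, beside 7.41% of all genes.

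Of the 8 regions, 6 appear here as 201-base windows centred on the summit, to show where matched letters lay and which summits had none. Those of dad-1 and trap-1 are described without their sequence. Each window shown is read along the strand of the gene named first and comes from the RefSeq copy of WBcel235. Capitals mark CCAAT on either strand, the letters TGACGTG on either strand, and a word of 10 bases that recurred among the windows. The windows lie at chrIV:2389008-2389208 (plus strand, trap-3 and sec-61.B), chrV:10897261-10897461 (minus strand, sec-61.G) and chrX:768193-768393 (minus strand, trap-2). The others lie at chrIII:12874801-12875001 (plus strand, spcs-2), chrIV:4513581-4513781 (minus strand, sar-1) and chrIV:11566251-11566451 (minus strand, sec-24.1). None overlaps an annotated exon of a protein-coding gene.
trap-3 and sec-61.B: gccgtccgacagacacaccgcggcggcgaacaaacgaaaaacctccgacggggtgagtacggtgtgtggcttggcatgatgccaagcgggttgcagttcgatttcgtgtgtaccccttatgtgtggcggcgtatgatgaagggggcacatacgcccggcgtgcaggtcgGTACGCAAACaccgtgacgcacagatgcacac
sec-61.G: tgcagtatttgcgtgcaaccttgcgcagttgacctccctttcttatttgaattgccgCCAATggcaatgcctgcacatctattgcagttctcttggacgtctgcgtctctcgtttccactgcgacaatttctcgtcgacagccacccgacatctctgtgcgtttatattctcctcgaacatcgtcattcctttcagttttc
trap-2: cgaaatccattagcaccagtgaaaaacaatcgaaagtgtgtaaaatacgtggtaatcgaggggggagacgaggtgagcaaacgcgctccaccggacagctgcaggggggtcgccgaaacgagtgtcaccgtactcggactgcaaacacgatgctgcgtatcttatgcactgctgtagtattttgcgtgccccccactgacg
spcs-2: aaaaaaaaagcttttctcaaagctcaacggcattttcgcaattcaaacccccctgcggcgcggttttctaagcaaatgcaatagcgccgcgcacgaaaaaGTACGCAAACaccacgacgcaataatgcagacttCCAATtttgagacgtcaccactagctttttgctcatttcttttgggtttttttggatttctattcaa
sar-1: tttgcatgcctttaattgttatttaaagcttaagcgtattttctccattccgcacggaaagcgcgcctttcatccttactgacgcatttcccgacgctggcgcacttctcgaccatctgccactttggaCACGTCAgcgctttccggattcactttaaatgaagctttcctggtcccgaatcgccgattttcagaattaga
sec-24.1: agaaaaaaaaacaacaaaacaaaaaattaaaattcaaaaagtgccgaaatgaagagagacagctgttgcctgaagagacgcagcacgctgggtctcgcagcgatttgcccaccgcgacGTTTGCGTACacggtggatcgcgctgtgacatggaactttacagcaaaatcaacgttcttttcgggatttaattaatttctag

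The highest signal among these genes lay at the region shared by sec-61.B and trap-3. The region chrIV:2388980-2389254 sits in the 769 bp between divergently transcribed genes: sec-61.B, for the small beta subunit of the channel, and trap-3, for the gamma subunit of TRAP. Its summit was 433 bp upstream of sec-61.B and 337 bp upstream of trap-3, so the signal cannot be divided between them. The non-coding RNA gene Y38F2AR.17 also spans this summit. The signal was 815 in the conservative list, 362 in replicate 1 and 465 in replicate 2 (413 ± 73.1, mean ± SD, n = 2). It ranked 24 among 1365 regions with a promoter summit. This signal is the peak caller's own value per region, on a scale that is not stated. Values of different lists are given side by side, and an SD between replicates includes any difference in scale between their lists.

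sec-61.G, for the gamma subunit of the channel, had the next region (chrV:10897238-10897467), which peaked 218 bp before the gene. The conservative list gave it a signal of 571, and replicates 1 and 2 gave 240 and 332 (286 ± 65.0, SD, n = 2). In each replicate it lay below the region shared by sec-61.B and trap-3, and above every other region of this gene list. The nearest start of another protein-coding gene, F32D8.13, lay 818 bp from the summit.

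sec-61.A encodes the alpha subunit, which forms the channel itself, and it fell just outside the rule. A conservative region at chrIV:14824850-14825225 had its summit 226 bp downstream of the most upstream sec-61.A start, in an annotated untranslated stretch, where the window ends at 200 bp. Its signal was 210, with 101 and 109 in replicates 1 and 2, and the start of rps-18, a ribosomal protein gene, lay 641 bp from the summit. In the lists made from single replicates a summit fell inside the window, at 32 bp downstream of the start in replicate 1 and at 95 bp downstream in replicate 2. The first of these was faint, with a signal of 3.62, and the second is the region with 109 given above. With a window reaching 300 bp downstream, chosen after this position was seen, 10 of the 31 genes and 7.72% of all genes were bound. Among the bound genes, the farthest summit was the one 433 bp upstream of sec-61.B.

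Of the TRAP genes, trap-2 encodes the beta subunit and had a region at chrX:768207-768361, 224 bp upstream of its start. The signal was 315 in the conservative list, 141 in replicate 1 and 161 in replicate 2 (151 ± 13.9, SD, n = 2). The same summit lay 303 bp upstream of ile-2, an intracellular lectin gene transcribed the other way across a gap of 526 bp. Both genes were therefore called bound by 1 region.

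trap-1, for the alpha subunit of TRAP, had a weaker region (chrI:2928024-2928399) that peaked 183 bp before the gene. It had a signal of 155, with 65.0 and 90.2 in replicates 1 and 2 (77.6 ± 17.9, SD, n = 2). A further conservative region lay in the coding sequence of trap-1, 754 bp downstream of the start, at a signal of 92.2 (58.5 and 51.8 in the replicates). trap-4, for the delta subunit, was not bound. Its nearest conservative summit lay 1098 bp downstream of the trap-4 start, in the coding sequence of the neighbouring gene Y56A3A.22 and 141 bp from the start of that gene.

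spcs-2, for a subunit of signal peptidase, was bound at chrIII:12874713-12875088 with the summit 130 bp upstream. The signal was 182, with 84.0 and 106 in the replicates (95.1 ± 15.7, SD, n = 2). The start of mrg-1, a chromodomain protein gene on the other strand, lay 245 bp from the same summit. spcs-1 and spcs-3 were not bound, and their nearest conservative summits lay 29357 and 24429 bp away.

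Only dad-1 was bound of the 5 OST genes. It encodes the DAD1 subunit, first known as a defender against cell death, and its region (chrI:6554646-6554739) had its summit 384 bp upstream. The signal was 317, with 138 and 167 in replicates 1 and 2 (153 ± 20.5, SD, n = 2). The start of tre-1, a trehalase gene, lay only 55 bp from this summit, and the non-coding RNA gene F57B10.17 spanned it. By nearest start the region would belong to tre-1. The catalytic subunit gene stt-3 and the subunit genes ribo-1, ostb-1 and ostd-1 were not bound.

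Of the COPII genes, sar-1 and sec-24.1 were bound. sar-1 encodes the small GTPase that starts coat assembly, and its region (chrIV:4513493-4513868) had its summit 362 bp upstream. The signal was 148, with 76.8 and 81.3 in the replicates (79.1 ± 3.17, SD, n = 2). sec-24.1, for a cargo-binding inner coat subunit, had its summit 157 bp upstream (chrIV:11566163-11566538).

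At sec-24.1 the signal was 136, with 76.8 in replicate 1 and 62.1 in replicate 2 (69.4 ± 10.4, SD, n = 2), the lowest of the 8 regions in the conservative list. It overlapped no thresholded region of replicate 2, and its −log10 global IDR was 2.95. The global irreproducible discovery rate (IDR) measures how well a region's rank repeats between sets of calls. The summit also lay inside the non-coding RNA genes F12F6.13 and F12F6.14. The second cargo subunit gene sec-24.2, the inner coat gene sec-23, the outer coat gene sec-31 and sec-12, for the exchange factor of the Sar1 GTPase, were not bound.

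**Figure D2:**
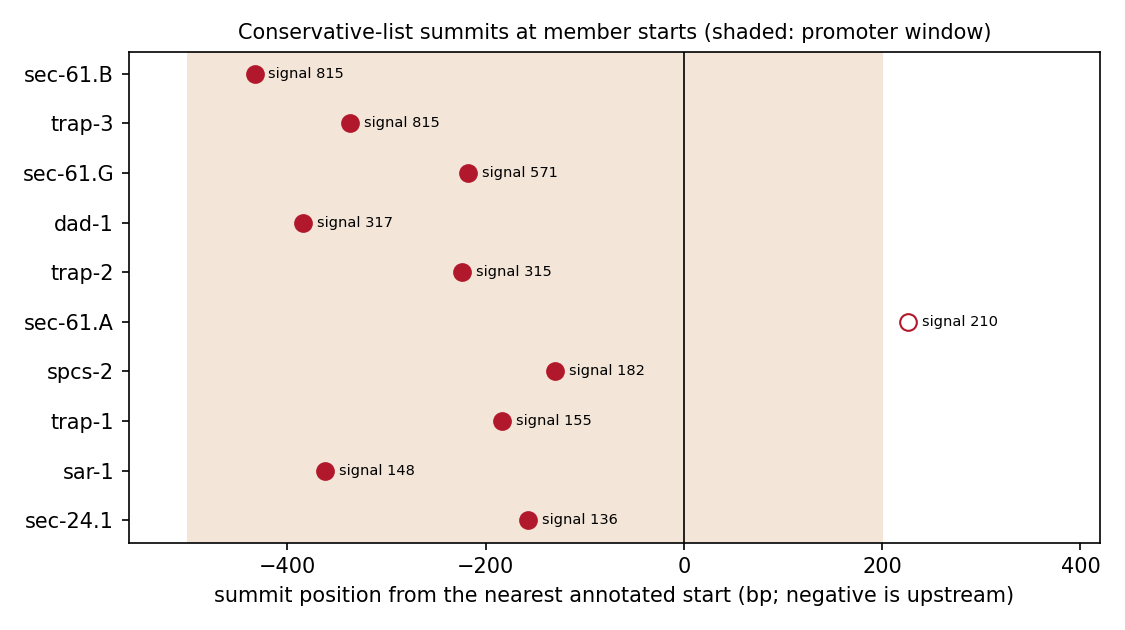
Position of conservative-list summits (horizontal axis, bp from the nearest annotated start, negative upstream) for the 9 bound genes (filled) and sec-61.A (open), with the signal beside each point. The shaded band is the promoter window, and the sec-61.A summit lies at 226 bp downstream, outside it.

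For all 9 bound genes the summit lay upstream of the start, between 130 and 433 bp from it, and each of the 8 summits lay between protein-coding genes. The window itself reaches 500 bp upstream and only 200 bp downstream. Shares of summit side and of neighbour direction over all genes were not computed, so neither is shown to be particular to these genes. The neighbour upstream of the bound gene was transcribed the other way for 7 of 9, and for 16 of the 22 genes that were not bound. The gap to a neighbour of that kind was under 1000 bp for 5 of the 9 bound genes and for 9 of the 22 others. The upstream neighbour lay on the same strand for 2 of the 9 bound genes and 6 of the 22 others, with median gaps of 992 and 256.5 bp. Whether any of these genes is transcribed together with that neighbour, from a start outside its own window, was not tested. In worms many messages are trans-spliced, so an annotated start can lie downstream of the true start of transcription. Whether it does so at these genes was not tested.

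Across the 8 regions the signal ran from 65.0 to 362 in replicate 1, with a median of 111, and from 62.1 to 465 in replicate 2, with a median of 134. Replicate 2 was higher at all regions but sec-24.1, with ratios of replicate 2 over replicate 1 from 0.809 to 1.39 and a median of 1.24, against 1.18 over 1348 promoter regions found in both ranked lists. The values of the sec-61.B and trap-3 region and of sec-61.G exceeded those of the other 6 regions in both replicates. The order of dad-1 and trap-2 changed from replicate 1 to replicate 2, as did that of trap-1 against sar-1 and sec-24.1, so these pairs are not ranked here. The values of spcs-2 lay above those of trap-1, sar-1 and sec-24.1 within each replicate. Over the 8 regions the median signal in the conservative list was 249, beside 133 over all 1365 promoter regions.

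Called from each replicate alone, 10 of the 31 genes were bound in replicate 1, beside 3.68% of all genes, and 10 in replicate 2, beside 5.12% of all genes. sec-61.A was added in both lists, sec-24.1 was missing from that of replicate 2, and copz-1 was added there. Of the 9 genes bound in the conservative list, 8 (88.9%) were also bound in both replicates, against 604 of 1480 (40.8%) over all genes. Genes that share a region are each counted in these shares.

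Below the threshold, most of the remaining genes had a weak region in the promoter window of the authors' full ranked list. Of the 22 unbound genes 15 had one, with signals from 28.1 to 91.6 and a median of 70.2. The highest was at sec-61.A, with 3.62 in replicate 1, 109 in replicate 2 and a −log10 global IDR of only 0.254. The replicate 2 region with 109 also overlaps the conservative sec-61.A region outside the window, described above, so it is no separate weak site. Its value lay above those of the bound spcs-2, trap-1, sar-1 and sec-24.1 in replicate 2. For all genes with a ranked region, 10328 of 19973 (51.7%), bound genes included, the median of the strongest signal was 48.5. The region nearest to the threshold of 2 on the −log10 global IDR scale was at ostd-1, with 1.84 and signals of 47.7 and 42.6 in replicates 1 and 2. Next was spcs-3, with 1.79, a signal of 54.7 in replicate 2 and no overlapping region in replicate 1. A separate replicate 1 region with a signal of 193 lay 1036 bp upstream of spcs-3. That region was nearer to the start of K12H4.5, at 506 bp, and had no replicate 2 signal.

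Among the 7 COPI genes, which encode the coatomer subunits, 5 had such a weak region. Their signals in the ranked list were 79.0 at copa-1, 70.2 at copb-2, 72.8 at cope-1, 57.9 at copd-1 and 53.3 at copg-1. In replicate 1 they ran from 23.2 at copg-1 to 36.6 at copd-1, and in replicate 2 from 27.3 at copg-1 to 60.5 at copa-1. Bound and unbound genes were split by a threshold on calls from these same replicates. That these values are lower than those of bound genes is therefore no separate result. copb-1 and copz-1 had no ranked region in the window. The region called at copz-1 in replicate 2 alone (signal 71.8) had its summit 311 bp upstream of copz-1 and 43 bp from the start of cyn-4, in whose coding sequence it lay.

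Weak regions were also ranked at srpa-72, for an SRP subunit (signal 75.0), at ribo-1 (79.0) and ostb-1 (66.3), at sec-31 (45.6) and sec-24.2 (33.4), and at spcs-1 (31.0) and trap-4 (28.1). The genes stt-3, dnj-7, dnj-27, sec-12 and sec-23 had none in the window. dnj-7 and dnj-27 encode ER proteins with a J domain, related to mammalian co-chaperones, and their nearest conservative summits lay 6129 and 24274 bp away.

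**Figure D3:**
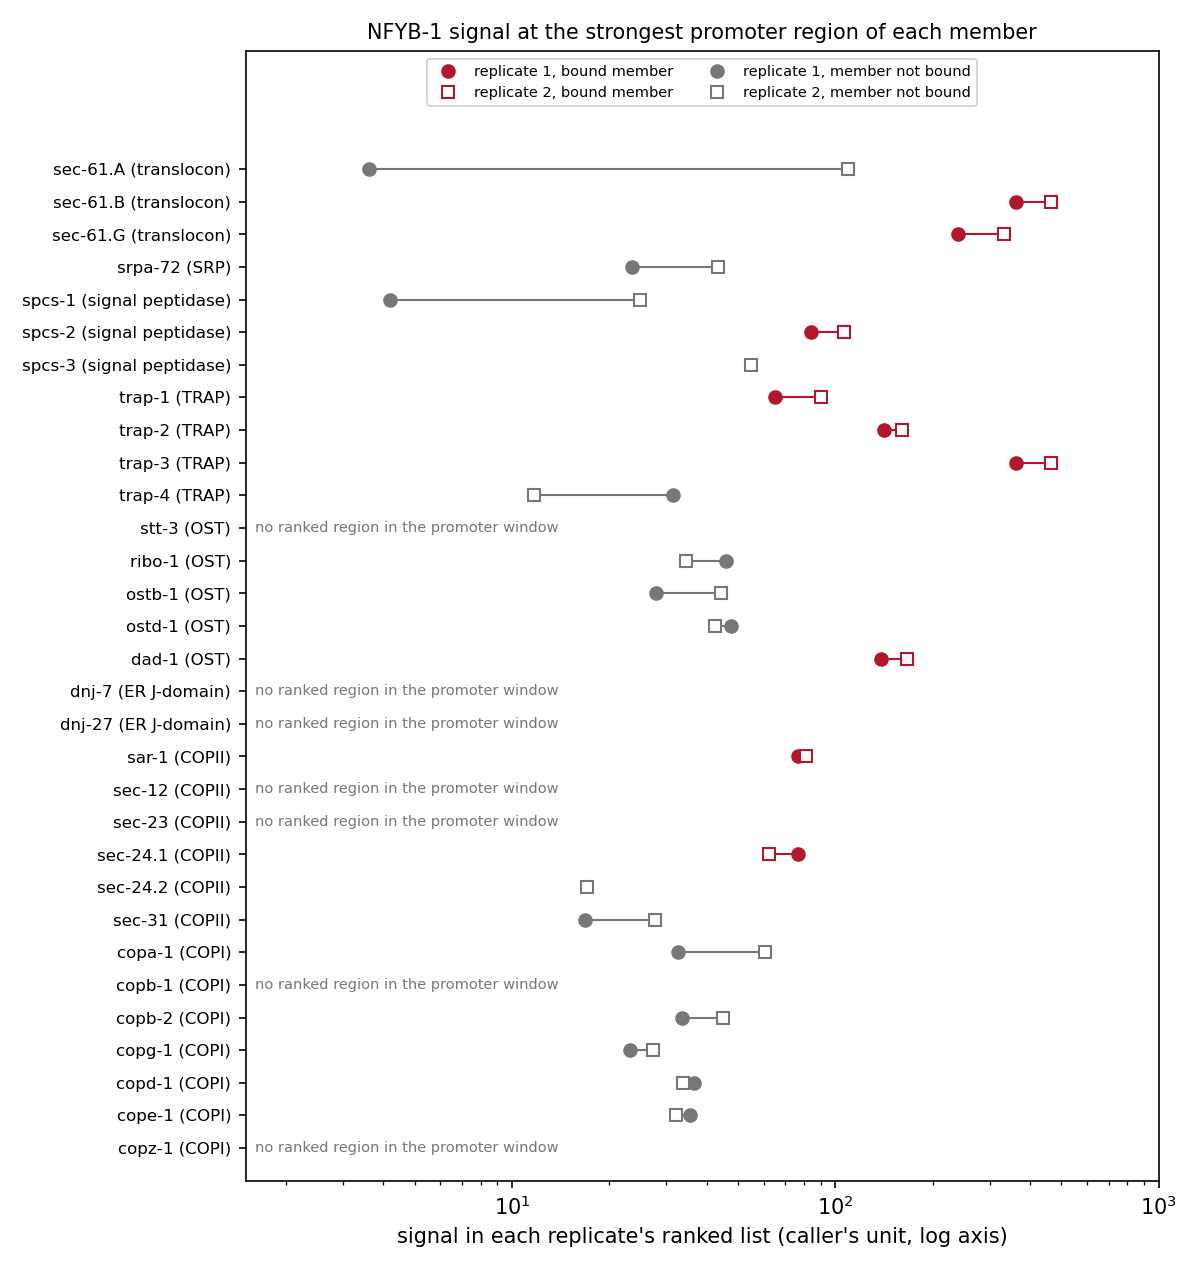
Signal (horizontal log axis, the caller's unit) of the strongest ranked region in the promoter window of each of the 31 genes, in replicate 1 (filled circles) and replicate 2 (open squares), red for bound genes. The region of sec-61.B and trap-3 stands highest at 362 and 465, and 7 genes have no ranked region.

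The NF-Y box was present at a minority of these summits, as it was at promoter summits in general. CCAAT lay within 100 bp of the summit on either strand in 3 of the 8 regions (37.5%), at sec-61.G, dad-1 and spcs-2, beside 30.8% of all promoter summits. In windows of equal width 500 bp away, 3 of 8 held it on the left and 1 of 8 on the right, beside 34.8% and 34.6% for all promoter regions. The box centre lay 8 bp from the summit at dad-1, 36 bp at spcs-2 and 41 bp at sec-61.G. The strongest region, between sec-61.B and trap-3, held no CCAAT within 100 bp of its summit.

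None of the 8 windows held the longer pattern RRCCAATSR (R is A or G, S is C or G), which was present at 4.62% of all promoter summits. Taken over the whole region, 1 of 8 held it, at spcs-2, where it lay 309 bp upstream of the start. The ER stress element, which is CCAAT followed after 9 bases by CCACG, was in none of the 8, nor was its second form, ATTGG followed after 1 base by CCACG. These were rare everywhere, at 0.0733% and 0.147% of promoter summits.

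Over whole promoter windows of 701 bp, CCAAT was in 19 of the 31 genes (61.3%), beside 77.8% of all genes. RRCCAATSR was in 3 of 31 (9.68%, beside 6.57% of all genes), namely the bound spcs-2 and the unbound ostb-1 and sec-12. The letters TGACGTG, the core of the site of XBP-1, a transcription factor of the unfolded protein response, were in 8 of 31 windows (25.8%), beside 6.15% of all genes. Of these 8, sar-1 was bound, and stt-3, ribo-1, ostb-1, dnj-7, sec-31, cope-1 and copz-1 were not. At sar-1 this match lay 32 bp from the NFYB-1 summit. These are matches of letters and do not show that a factor sat there.

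**Figure D4:**
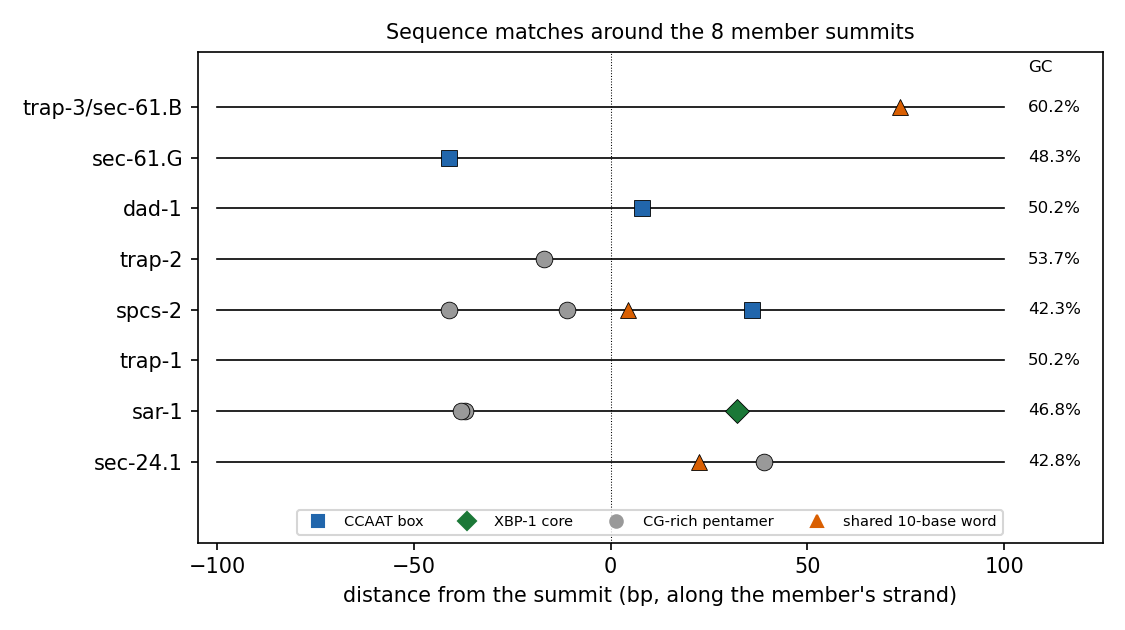
Sequence matches within 100 bp of the 8 summits, along the strand of the first-named gene (horizontal axis, bp from the summit), with the GC content of each window at the right. CCAAT boxes (blue) are in 3 windows, the XBP-1 core (green) in 1, the CG-rich pentamer (grey) in 4 and the shared 10-base word (orange) in 3.

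The GC content of the windows ran from 42.3% at spcs-2 to 60.2% between sec-61.B and trap-3, with a median of 49.3%, beside 42.8% over all promoter summit windows. The pentamer CGCGC, which was chosen because it stood out at NFYB-1 summits in these data, was in 4 of the 8 (trap-2, spcs-2, sar-1 and sec-24.1), beside 34.1% of all promoter summits.

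A 10-base word, printed in capitals in the windows above, was shared by 3 of the 8: those at trap-3 and sec-61.B, at spcs-2 and, on the other strand, at sec-24.1. It was found by a search of these windows for the word in most of them, so its presence there is no result. It was in 18 of 1365 promoter summit windows (1.32%), in 0 and 2 of the flanks of these summits, and in 0.806% of the 701 bp promoter windows of all genes. At spcs-2 the word began at the summit, and at sec-24.1 and trap-3 it began 18 and 69 bp after it.

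Of 54 further genes of the ER and of transport to the Golgi, listed by class or singly by symbol, 9 (16.7%) were bound, beside the 7.41% of all genes. Most of the 9 came from the genes listed singly, of which 6 of 19 (31.6%) were bound. The strongest was ile-2, through the region it shares with trap-2. Then came erd-2.1, for a receptor that returns ER proteins from the Golgi, with a signal of 286 and its summit 79 bp upstream (109 and 167 in replicates 1 and 2).

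syx-5, for a membrane fusion protein of the ER and Golgi, had a signal of 220 (116 and 106 in the replicates), with F55A11.1 nearer at 128 bp. tmed-10, a p24 cargo receptor gene, had 178 (73.0 and 100.1), and npp-20, for the Sec13 protein of COPII coats and nuclear pores, had 135 (66.6 and 64.5). Also bound, and named after their values were seen, were uggt-1, trpp-11 and algn-13, with 128, 133 and 111. trpp-11 was bound in neither replicate's own list, algn-13 not in that of replicate 1 and npp-20 not in that of replicate 2. By class, 1 of 13 genes that build the lipid-linked sugar for OST was bound, 1 of 10 of the TRAPP tether, 1 of 7 p24 genes and none of the 5 found for the ER membrane protein complex.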

How the data were processed

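NFYB-1 binding was measured in 2 biological replicates of 1 group. Per the deposited description files, the authors placed regions on ce11, the same assembly as WBcel235, and compared calls by IDR. Alignment and peak calling software was not given in the sources used here. In the files the deposited signal is the caller's value per region, the deposited score is the scaled global IDR (830 or more in the main list), and the authors' −log10 values hold the global IDR. The conservative list (3890 regions, 3879 nuclear) came from the alignments of both replicates, per the description files. It was compared with the lists of replicate 1 (1734) and replicate 2 (2433) and the other whole-series list (4061). Replicate signals are those of the overlapping ranked region with the nearest summit. Depth is unknown, and a control experiment was not used here.

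Starts of all transcripts of protein-coding genes came from Ensembl release 115, and sequence from RefSeq WBcel235. Coordinates are 1-based. Summits were assigned and motifs searched on both strands with Python 3.11.15, pandas 2.3.3 and numpy 2.4.6, after tests on planted summits and boxes. Promoter motif windows used the most upstream start. No p-values were computed, since there was 1 group. Genes named by rule were all 31 found, other genes with a start as near as or nearer to a summit than the listed gene, and the 6 strongest further pathway genes, of which 1 is not reported here. Neighbours farther from a summit, such as mrg-1, ile-2, F32D8.13 and rps-18, were named after their values were seen. Members, lists and rules were chosen with earlier results of these data known. Windows are shown for bound genes outside chromosome I whose region holds RRCCAATSR or whose window lacks CCAAT, with sec-61.G added for its CCAAT. Of the symbols fixed for the further pathway genes, 4 matched no gene. Alternatives are given at the end.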

Additional observations from a re-analysis of the deposited data

How the results depend on the processing

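Of 77 recomputed values, 57 stayed within 1.5 times the reported count. None of these was a median signal, since each recomputed median moved by more than 1 SD of the replicate medians, the limit set for it. The 57 include RRCCAATSR counts that stayed at 0 and some counts in flanks, which are controls, so they are no measure of stability. With a promoter of 250 bp before and 100 bp after the start, 5 genes were bound rather than 9, of which 4 were translocation and glycosylation genes and 1 a coat gene, and the count over all genes was 915. These are 16.1% of the 31 genes and 4.58% of all genes. That window lost dad-1, sar-1, sec-61.B and trap-3. Only 1 coat gene was bound, without sec-24.1, among regions in both replicates' lists and at a global IDR of 0.001, where all bound genes numbered 609 (3.05%) and 757 (3.79%) and 8 of the 31 (25.8%) were bound. Leaving out 1 replicate gave 735 to 1022 bound genes, and 10 of the 31 genes either way. Counting only the nearest gene left 7 genes (22.6%, beside 6.27% of all genes), without dad-1 and sec-61.B.

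The median signal of the regions was 315 in both replicates' lists and at IDR 0.001, 182 with the narrower promoter and with the nearest gene only, and 210 with promoters reaching 1000 bp upstream, 300 bp downstream (added later) or any overlap. In single replicates, on another scale, it was 80.4 to 109. CCAAT was in 1 right flank, and RRCCAATSR in 1 whole region. No paired analysis was possible because there was 1 group. Depth is unknown, so weak regions cannot be read as absence of binding.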

Other observations

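The longest word shared by 2 of the 8 summit windows had 13 bases, gtacgcaaacacc, and lay at spcs-2 and between sec-61.B and trap-3. It was in 11 of 1365 promoter summit windows (0.806%), in 0 of the flanks on either side, and in 107 of 19973 promoter windows of all genes (0.536%). It was noticed in these windows and then counted in a set that holds them, so it is a description only.

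Other regions lay close to these genes without counting as promoter binding. A conservative region 1084 bp downstream of the trap-3 start, at a signal of 145, lay 292 bp from the start of eri-5. Another, 1097 bp downstream of the dad-1 start at a signal of 119, lay in an intron of ucr-11, 186 bp from a start of that gene. In replicate 2 alone a region in the coding sequence of sec-24.1, 964 bp downstream of its start, reached a signal of 67.9.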
